A study of Mus musculus with 22 samples.

Results

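The 41 genes described here encode the carriers, enzymes and regulators of fatty acid oxidation and ketogenesis in the liver. They were taken by gene symbol from mouse liver count tables of 45777 genes, of which 25676 had counts. All 41 members had counts, and all 41 passed the filter on low counts in both cohorts. Liver polyA RNA of male wild-type C57BL/6J mice was sequenced in 22 libraries, 11 in each of a pair of cohorts. In the MCD cohort, 3 libraries came from mice on a methionine- and choline-deficient (MCD) diet that received DTMB, 4 from mice on that diet with vehicle, and 4 from mice on a normal diet with vehicle. In the HFD cohort, 4 libraries came from mice on a high-fat diet (HFD) that received DTMB, 4 from HFD mice with vehicle, and 3 from normal-diet mice with vehicle. DTMB, known here only by this code name, was dosed orally (10 mg/kg each day). The labels give no ages and no length of feeding. They name the cohort as the batch, so the batch and the diet model of a cohort cannot be told apart.

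Fatty acids are activated to acyl-CoA, and long chains enter mitochondria as carnitine esters through the carnitine shuttle. Inside, dehydrogenases, hydratases and thiolases of the beta-oxidation spiral shorten the chain, passing electrons to the respiratory chain and acetyl-CoA to the citric acid cycle or, in hepatocytes, to ketone bodies. Peroxisomes run a parallel spiral for very long and branched chains. Many of these genes are targets of PPARalpha, the fatty acid receptor that drives the fasting programme of the liver.

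Library totals ran from 50078966 to 66727450 counts. Levels are CPM, the counts of a gene scaled to the library total, on a common scale of all 22 libraries, and folds are log2 values with their standard error (SE) from edgeR's quasi-likelihood test, called at an adjusted p under 0.05 over all genes. The replicates are labelled as biological, and the tissue as liver. Sums over marker lists were scaled by library total alone, not on the common scale. By that measure the 9 hepatocyte markers measured summed to between 70600 and 121000 CPM in every library. Markers of pancreatic acinar cells summed to over 100 CPM in 6 libraries. These were HFD DTMB replicate 3 (1554 CPM), HFD vehicle replicates 1 and 4 (415 and 2910 CPM), the HFD cohort's normal-diet replicates 1 and 3 (1268 and 1135 CPM) and the MCD cohort's normal-diet replicate 4 (323 CPM). The first of these normal-diet livers, HFD cohort replicate 1, also held 163 CPM of muscle markers. In whole liver, fewer cells of a type and less RNA per cell cannot be told apart.

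The 2 diets gave unlike responses, each against the normal diet of its own cohort. On the MCD diet 21 of the 41 members rose and 5 fell against the cohort's normal-diet livers, with a median log2 fold change of 0.43 (34 rose and 0 fell when scaled by library size alone, which puts the median of all genes at 0.47). The background was 20.3% of 16037 tested genes higher and 21.0% lower, with a median of 0.0039. On HFD 4 members rose and 19 fell, with a median of -0.27 (5 rose and 10 fell by library size alone, with all genes at 0.14). There the background was 15.2% of 15597 genes higher and 12.6% lower, with a median of 0.015. The difference between the diet responses was itself tested in a fit of all 22 libraries, MCD minus HFD. It was called for 23 members, 21 of them with a higher value on MCD, against a background of 16.8% of 16541 genes higher and 18.5% lower. Without the acinar libraries, which leaves 2 HFD vehicle livers and 1 normal-diet liver, 2 members were called on HFD (Ehhadh and Acot1, both lower), 28 of the 41 values were negative, and 655 of all genes were called in place of 4332. Marker lists moved with the MCD diet: of 9 hepatocyte markers 4 fell and 0 rose (median -0.34). Their summed level was 98100 to 121000 CPM in vehicle and 70600 to 100000 CPM in normal-diet livers. Sums of markers are scaled by library size alone and the folds are not, so the sum and the median cannot be set against each other. Of 10 macrophage markers 7 rose, and of 8 stellate and fibroblast markers 4 rose (445 to 793 CPM in vehicle and 114 to 298 CPM in normal-diet livers). On HFD 2 hepatocyte markers rose and 2 fell, and 5 macrophage and 2 stellate and fibroblast markers rose. Their part in the members' values was not tested. Vehicle and normal-diet livers did not overlap for 20 members higher and 3 lower on MCD, and for 4 higher and 23 lower on HFD. Among all tested genes the groups did not overlap for 18.3% higher and 19.2% lower on MCD, and for 17.9% higher and 18.7% lower on HFD.

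**Figure D1:**
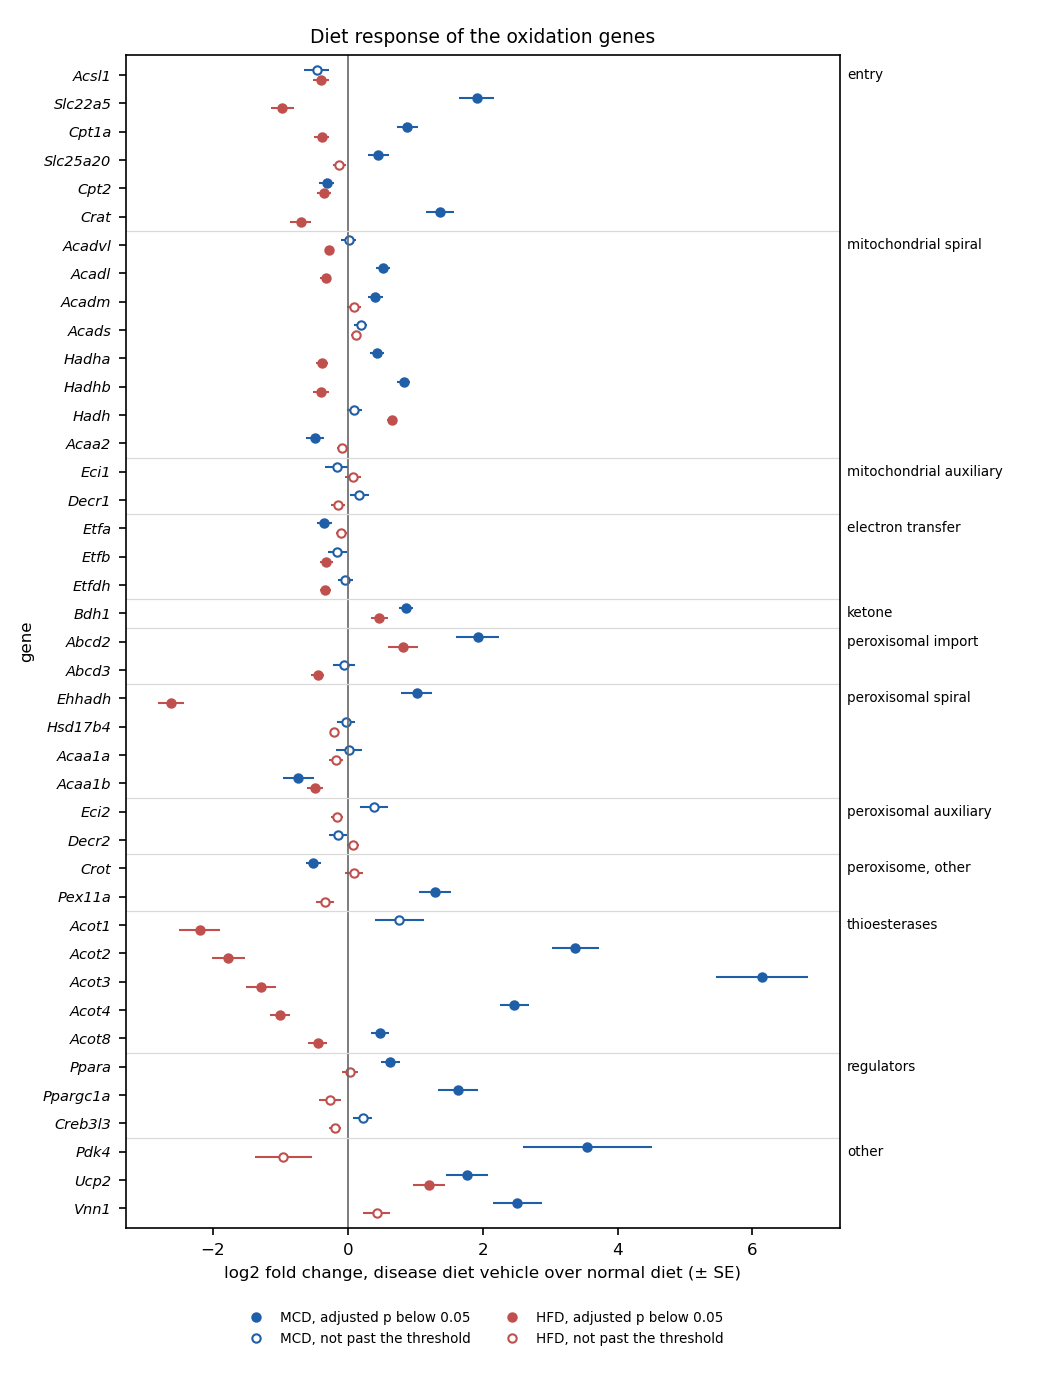
Log2 fold change of each of the 41 genes on the disease diet with vehicle over normal diet with vehicle, with its SE, in the MCD cohort (blue) and the HFD cohort (red), grouped by role. Filled points passed the threshold; Acot3 stands furthest apart, at 6.14 on MCD and -1.29 on HFD.

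Of the 6 genes that activate fatty acids and carry them to the spiral, 4 rose and 1 fell on MCD, and 0 rose and 5 fell on HFD. Cpt1a, which sets the pace of long-chain entry into mitochondria (gene ID 12894, chromosome 19, 3322326 to 3385735 in mm10), had 639, 673 and 563 CPM in MCD DTMB livers, 762, 644, 575 and 453 CPM in MCD vehicle livers and 326, 323, 287 and 374 CPM in normal-diet livers. It had 727, 651, 510.0 and 612 CPM in HFD DTMB livers, 646, 617, 725 and 705 CPM in HFD vehicle livers and 836, 959 and 879.7 CPM in normal-diet livers in the HFD cohort. The disease-diet vehicle livers lay above all normal-diet livers in the MCD cohort and below all of them in the HFD cohort. The log2 fold change was 0.88 ± 0.15 on MCD (adjusted p = 0.000898) and -0.39 ± 0.11 on HFD (adjusted p = 0.0231), and the responses differed by 1.30 ± 0.19 (adjusted p = 2.89e-05). Slc22a5, the plasma membrane carnitine transporter OCTN2, followed the same directions, at 1.92 ± 0.26 on MCD and -0.97 ± 0.18 on HFD. So did the carnitine acetyltransferase Crat, at 1.37 ± 0.20 and -0.70 ± 0.16. Slc25a20, the translocase that carries acylcarnitines across the inner membrane, rose on MCD (0.45 ± 0.16) and had -0.13 ± 0.092 on HFD, short of the threshold. Cpt2, which turns acylcarnitine back into acyl-CoA, fell on HFD (-0.35 ± 0.10) and on MCD (-0.31 ± 0.11), the MCD value turning to 0.15 by library size alone and losing its call in 11 of 21 alternatives. The long-chain acyl-CoA synthetase Acsl1 fell on HFD (-0.40 ± 0.11) and had -0.46 ± 0.19 on MCD (adjusted p = 0.0664).

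Of the 8 genes of the mitochondrial spiral, 4 rose and 1 fell on MCD, and 1 rose and 4 fell on HFD. Hadha, the alpha subunit of the trifunctional protein that handles long chains, had 415, 494 and 422 CPM in MCD DTMB livers, 459, 393, 387 and 459 CPM in MCD vehicle livers and 289, 304, 329 and 328 CPM in normal-diet livers. Hadha in the HFD cohort had 476, 481, 386 and 472 CPM in HFD DTMB livers, 450.3, 474, 501 and 465 CPM in HFD vehicle livers and 604, 623 and 647 CPM in normal-diet livers. Its vehicle groups did not overlap their normal-diet groups in either cohort, above them on MCD (0.43 ± 0.11, adjusted p = 0.00716) and below them on HFD (-0.38 ± 0.085, adjusted p = 0.00584). Hadhb, the beta subunit of the same protein, moved with it, by 0.83 ± 0.095 on MCD and -0.39 ± 0.12 on HFD. The long-chain dehydrogenase Acadl likewise had 0.52 ± 0.10 on MCD and -0.33 ± 0.085 on HFD. Acadvl, the dehydrogenase of very long chains, fell on HFD (-0.27 ± 0.072) and had 0.016 ± 0.11 on MCD. By library size alone 9 of the 41 members lost their call on HFD.

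For the members that handle medium and short chains no fall was called on HFD. The difference between longer and shorter chains was not tested. The medium-chain dehydrogenase Acadm had 379, 507 and 450.2 CPM in MCD DTMB livers, 414, 396, 381 and 438 CPM in MCD vehicle livers and 272, 294, 328 and 323 CPM in normal-diet livers. Acadm in the HFD cohort had 728, 746, 686 and 904 CPM in HFD DTMB livers, 691, 718, 763 and 738 CPM in HFD vehicle livers and 632, 669 and 771 CPM in normal-diet livers. All MCD vehicle livers lay above their normal-diet livers (0.41 ± 0.11, adjusted p = 0.0125), while the HFD groups overlapped (0.091 ± 0.100, adjusted p = 0.534). Hadh, the 3-hydroxyacyl-CoA dehydrogenase of shorter chains (gene ID 15107, chromosome 3, 131233419 to 131272101), had 318, 384 and 387 CPM in MCD DTMB livers, 318, 288, 287 and 354 CPM in MCD vehicle livers and 254, 294, 300.2 and 311 CPM in normal-diet livers. Hadh in the HFD cohort had 531, 536, 570.5 and 618 CPM in HFD DTMB livers, 527, 566, 551 and 581 CPM in HFD vehicle livers and 335, 370.5 and 365 CPM in normal-diet livers. It was the one spiral gene that rose on HFD, by 0.66 ± 0.071 (adjusted p = 7.61e-05), with all HFD livers above all normal-diet livers, and its MCD groups overlapped (0.093 ± 0.11, adjusted p = 0.527). The responses differed by -0.54 ± 0.13 (adjusted p = 0.00301), lower on MCD, 1 of 2 members with that direction. Acads, for short chains, had 0.19 ± 0.10 on MCD and 0.11 ± 0.068 on HFD and passed in neither. Acaa2, the thiolase that closes the mitochondrial cycle, had 476, 636 and 554 CPM in MCD DTMB livers, 553, 457, 477 and 634 CPM in MCD vehicle livers and 638, 726, 804 and 779 CPM in normal-diet livers. Acaa2 in the HFD cohort had 889, 902, 890.3 and 950.1 CPM in HFD DTMB livers, 742, 827, 846 and 719.7 CPM in HFD vehicle livers and 829.6, 891 and 816 CPM in normal-diet livers. It fell on MCD (-0.49 ± 0.14, adjusted p = 0.0145, but -0.027 and not called by library size alone), with all 4 vehicle livers below all 4 normal-diet livers, and did not pass on HFD (-0.093 ± 0.075).

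Of the 3 electron transfer genes, which take electrons from the acyl-CoA dehydrogenases, none was called higher on either diet by edgeR, 1 fell on MCD and 2 fell on HFD. Etfa, the alpha subunit of the electron transfer flavoprotein, had 273, 288 and 292 CPM in MCD DTMB livers, 269, 247, 237 and 332 CPM in MCD vehicle livers and 337, 338, 337 and 359 CPM in normal-diet livers. Etfa in the HFD cohort had 344, 351, 362 and 402 CPM in HFD DTMB livers, 302, 311, 338 and 310.0 CPM in HFD vehicle livers and 309, 373 and 343 CPM in normal-diet livers. All MCD vehicle livers lay below the normal-diet livers (-0.35 ± 0.11, adjusted p = 0.0239, but 0.10 by library size alone), and the HFD groups overlapped (-0.100 ± 0.082). The beta subunit Etfb fell on HFD (-0.32 ± 0.093) and had -0.15 ± 0.14 on MCD. Etfdh, which hands the electrons to ubiquinone, fell on HFD (-0.33 ± 0.077) and had -0.037 ± 0.11 on MCD. Etfdh shares part of its span with Ppid (mean 31.7 CPM), and whether counting used the strand is not stated. The auxiliary enzymes of unsaturated chains, Eci1 and Decr1, passed on neither diet.

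Bdh1, which interconverts acetoacetate and 3-hydroxybutyrate, was one of 3 members that rose on both diets, with the transporter Abcd2 and the carrier Ucp2. Bdh1 (gene ID 71911, chromosome 16, 31422297 to 31458901) had 419, 404 and 433 CPM in MCD DTMB livers, 401, 367, 357 and 342 CPM in MCD vehicle livers and 171, 199, 216 and 215 CPM in normal-diet livers. Bdh1 in the HFD cohort had 315, 328, 277 and 322 CPM in HFD DTMB livers, 286, 270.5, 335 and 297 CPM in HFD vehicle livers and 175, 214 and 264 CPM in normal-diet livers. Every disease-diet liver lay above every normal-diet liver of its cohort. The rise was 0.86 ± 0.10 on MCD (adjusted p = 5.63e-05) and 0.47 ± 0.13 on HFD (adjusted p = 0.0172), larger on MCD by 0.42 ± 0.16 (adjusted p = 0.0403). The HFD call was lost when normal-diet replicate 1 or replicate 2 was left out (adjusted p up to 0.119 over 21 alternatives).

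Ehhadh, the bifunctional enzyme of the peroxisomal spiral and a classical PPARalpha target, had the largest fall of the 41 on HFD (gene ID 74147, chromosome 16, 21761285 to 21787834). It had 431, 777 and 820.2 CPM in MCD DTMB livers, 799, 635, 376 and 622 CPM in MCD vehicle livers and 279, 305, 318 and 286 CPM in normal-diet livers. Ehhadh in the HFD cohort had 668, 637, 541 and 960.2 CPM in HFD DTMB livers, 697, 691, 785 and 507 CPM in HFD vehicle livers and 4045, 3651 and 4770 CPM in normal-diet livers. The 3 normal-diet livers of the HFD cohort stand apart from the other 19 libraries, whose highest value was 960.2 CPM. The log2 fold change was 1.02 ± 0.23 on MCD (adjusted p = 0.004) and -2.62 ± 0.19 on HFD (adjusted p = 1e-05), with no overlap in either cohort.

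The other 3 enzymes of the peroxisomal spiral moved less. The thiolase Acaa1b had 377, 781 and 767 CPM in MCD DTMB livers, 564, 432, 431 and 444 CPM in MCD vehicle livers and 538, 720.3, 931 and 902 CPM in normal-diet livers. Acaa1b in the HFD cohort had 1563, 1330, 1428 and 1721 CPM in HFD DTMB livers, 1448, 1827, 1766 and 1375 CPM in HFD vehicle livers and 2186, 2282 and 2365 CPM in normal-diet livers. It fell on HFD with no overlap (-0.49 ± 0.11, adjusted p = 0.00784) and on MCD with overlapping groups (-0.74 ± 0.23, adjusted p = 0.0241). The MCD call was lost in 7 of 21 alternatives, among them without MCD vehicle replicate 2, 3 or 4 and without normal-diet replicate 3 or 4. Its near copy Acaa1a lies beside it on chromosome 9, passed on neither diet (0.019 ± 0.19 on MCD and -0.18 ± 0.10 on HFD), and may have shared reads with it. Hsd17b4, the multifunctional enzyme of branched and very long chains, also passed on neither.

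Transport into the peroxisome split between its 2 members. Abcd2, which imports very-long-chain acyl-CoA, had 66.6, 71.0 and 73.3 CPM in MCD DTMB livers, 61.2, 49.4, 52.0 and 53.8 CPM in MCD vehicle livers and 25.4, 9.53, 14.9 and 6.41 CPM in normal-diet livers. Abcd2 in the HFD cohort had 24.8, 28.5, 33.8 and 34.1 CPM in HFD DTMB livers, 28.5, 31.9, 32.1 and 44.2 CPM in HFD vehicle livers and 12.2, 24.9 and 21.6 CPM in normal-diet livers. It rose on MCD (1.93 ± 0.32, adjusted p = 0.000609) and on HFD (0.82 ± 0.22, adjusted p = 0.0155) with no overlap in either cohort. Abcd3, the abundant transporter PMP70, fell on HFD (-0.45 ± 0.093) and had -0.059 ± 0.17 on MCD. Crot, which makes medium-chain acylcarnitines for export to mitochondria, had 566, 501 and 484 CPM in MCD DTMB livers, 477, 529, 454 and 418 CPM in MCD vehicle livers and 626, 593, 751 and 688 CPM in normal-diet livers. Crot in the HFD cohort had 1224, 1241, 1110 and 1370 CPM in HFD DTMB livers, 1572, 1398, 1425 and 1533 CPM in HFD vehicle livers and 1095, 1380 and 1752 CPM in normal-diet livers. It fell on MCD with no overlap (-0.51 ± 0.11, adjusted p = 0.00389, but -0.040 and not called by library size alone) and was within the spread of normal-diet livers on HFD (0.089 ± 0.13). The peroxisome division gene Pex11a rose on MCD (1.29 ± 0.24) and had -0.34 ± 0.13 on HFD (adjusted p = 0.0731).

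Among the acyl-CoA thioesterases, which release free fatty acid and CoA from acyl-CoA, Acot3 and Acot2 had the largest differences between the diet responses of the 41 members. Acot1, Acot2, Acot3 and Acot4 are paralogues in a cluster on chromosome 12, and reads shared between them could be split by the counting, which is not described. Acot2 acts in mitochondria (gene ID 171210, chromosome 12, 83987861 to 83993877), Acot3 and Acot4 in peroxisomes (gene IDs 171281 and 171282, starting at 84052144 and 84037254), and Acot1 in the cytosol (gene ID 26897, starting at 84009502). The windows around their starts are shown with that of Ehhadh because Acot2, Acot3, Acot4 and Ehhadh had the largest differences among members called in opposite directions on the diets, and Acot1 lies beside them. Each runs from 250 bases before to 50 bases after the annotated start, on the gene's strand, from RefSeq on GRCm38.p6 (mm10), and of the pair of windows listed for Acot3 the one starting first is given. The start listed for Acot4 lies inside the span of the gene. Capitals mark the match, with up to 2 mismatches, to AGGTCANAGGTCA, the direct repeat spaced by 1 base that PPARalpha with its partner RXR is known to bind, searched on both strands.
Acot1, chr12:84009252-84009551, plus strand: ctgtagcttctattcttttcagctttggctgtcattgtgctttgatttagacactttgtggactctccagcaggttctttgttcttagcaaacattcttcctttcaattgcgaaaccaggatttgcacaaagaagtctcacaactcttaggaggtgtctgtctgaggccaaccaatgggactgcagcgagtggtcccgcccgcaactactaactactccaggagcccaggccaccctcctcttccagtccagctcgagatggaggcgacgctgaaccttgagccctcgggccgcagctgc
Acot2, chr12:83987611-83987910, plus strand: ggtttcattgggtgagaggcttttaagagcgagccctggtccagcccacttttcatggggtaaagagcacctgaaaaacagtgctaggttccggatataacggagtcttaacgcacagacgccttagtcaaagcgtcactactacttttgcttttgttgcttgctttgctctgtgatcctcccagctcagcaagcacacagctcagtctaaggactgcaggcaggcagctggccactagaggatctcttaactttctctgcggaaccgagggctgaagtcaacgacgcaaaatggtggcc
Acot3, chr12:84051894-84052193, plus strand: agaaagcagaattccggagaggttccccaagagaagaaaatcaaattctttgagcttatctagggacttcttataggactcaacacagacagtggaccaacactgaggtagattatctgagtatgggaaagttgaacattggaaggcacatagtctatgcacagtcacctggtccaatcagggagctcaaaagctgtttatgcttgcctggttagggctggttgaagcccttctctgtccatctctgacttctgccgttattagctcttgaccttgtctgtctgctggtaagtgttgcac
Acot4, chr12:84038129-84038428, plus strand: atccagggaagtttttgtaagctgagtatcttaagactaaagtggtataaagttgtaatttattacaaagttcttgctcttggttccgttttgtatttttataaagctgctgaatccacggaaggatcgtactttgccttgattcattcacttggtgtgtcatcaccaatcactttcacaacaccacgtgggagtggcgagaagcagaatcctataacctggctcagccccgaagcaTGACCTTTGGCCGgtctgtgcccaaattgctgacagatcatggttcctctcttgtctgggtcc
Ehhadh, chr16:21787785-21788084, minus strand: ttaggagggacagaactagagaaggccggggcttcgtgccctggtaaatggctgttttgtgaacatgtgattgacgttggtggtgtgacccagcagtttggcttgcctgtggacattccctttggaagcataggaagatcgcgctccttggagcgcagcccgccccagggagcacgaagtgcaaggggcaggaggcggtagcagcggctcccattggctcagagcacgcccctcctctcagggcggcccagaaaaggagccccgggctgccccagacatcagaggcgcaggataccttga

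The match in the Acot4 window lies on the opposite strand, with its first base 13 bases before the start. Among all 32851 mouse windows of this kind 3.86% held a match, against 10% of the 40 windows listed for 35 of the members. The other 3 windows with a match belong to Creb3l3, Etfa and Slc25a20.

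Acot2 had 31.8, 55.1 and 46.4 CPM in MCD DTMB livers, 47.1, 69.7, 25.1 and 22.1 CPM in MCD vehicle livers and 3.35, 3.69, 4.15 and 4.51 CPM in normal-diet livers. Acot2 in the HFD cohort had 33.0, 30.9, 23.6 and 47.7 CPM in HFD DTMB livers, 30.3, 33.8, 44.2 and 25.4 CPM in HFD vehicle livers and 132, 85.0 and 129.9 CPM in normal-diet livers. All MCD vehicle livers lay above their normal-diet livers (3.37 ± 0.35, adjusted p = 2.35e-05), and all HFD vehicle livers below theirs (-1.77 ± 0.24, adjusted p = 0.000322). Acot3 had 97.8, 172 and 236 CPM in MCD DTMB livers, 258, 109, 51.3 and 80.2 CPM in MCD vehicle livers and 3.93, 1.23, 1.12 and 0.639 CPM in normal-diet livers. Acot3 in the HFD cohort had 25.4, 36.6, 28.6 and 54.3 CPM in HFD DTMB livers, 19.2, 26.3, 28.2 and 27.4 CPM in HFD vehicle livers and 68.8, 55.1 and 63.8 CPM in normal-diet livers. Its rise on MCD, 6.14 ± 0.68 (adjusted p = 3.82e-05), was the largest of the 41 members, over a normal-diet level of 0.639 to 3.93 CPM. On HFD it fell with no overlap (-1.29 ± 0.22, adjusted p = 0.00142).

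Acot4 had 61.1, 106 and 102 CPM in MCD DTMB livers, 71.6, 64.8, 48.5 and 57.01 CPM in MCD vehicle livers and 13.7, 11.3, 10.3 and 7.87 CPM in normal-diet livers. Acot4 in the HFD cohort had 49.0, 55.1, 52.3 and 64.2 CPM in HFD DTMB livers, 41.9, 48.0, 48.6 and 36.1 CPM in HFD vehicle livers and 92.6, 69.0 and 106 CPM in normal-diet livers. The groups again did not overlap, above on MCD (2.47 ± 0.21, adjusted p = 5.84e-06) and below on HFD (-1.01 ± 0.15, adjusted p = 0.000499). Acot1 had 16.8, 32.4 and 33.3 CPM in MCD DTMB livers, 23.0, 41.7, 10.6 and 16.2 CPM in MCD vehicle livers and 11.9, 9.59, 16.5 and 15.3 CPM in normal-diet livers. Acot1 in the HFD cohort had 111, 115, 83.5 and 187 CPM in HFD DTMB livers, 80.8, 98.2, 129 and 51.6 CPM in HFD vehicle livers and 463, 348 and 444 CPM in normal-diet livers. It fell on HFD (-2.20 ± 0.30, adjusted p = 0.000309) and overlapped on MCD (0.76 ± 0.36, adjusted p = 0.112), where the highest of the 11 livers had 41.7 CPM and the lowest normal-diet liver of the HFD cohort had 348 CPM.

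Acot8, a peroxisomal thioesterase outside this cluster, had 15.2, 16.2 and 19.5 CPM in MCD DTMB livers, 18.2, 14.5, 14.9 and 15.1 CPM in MCD vehicle livers and 8.75, 10.6, 12.5 and 12.7 CPM in normal-diet livers. Acot8 in the HFD cohort had 21.7, 20.4, 22.4 and 26.2 CPM in HFD DTMB livers, 17.9, 18.6, 20.9 and 12.9 CPM in HFD vehicle livers and 24.0, 22.7 and 25.9 CPM in normal-diet livers. It rose on MCD (0.48 ± 0.14, adjusted p = 0.0136) and fell on HFD (-0.45 ± 0.14, adjusted p = 0.0335). All 5 thioesterases were called for a higher response on MCD than on HFD, by 0.96 for Acot8 to 7.46 for Acot3. Acot8 overlaps Snx21 (mean 6.82 CPM against 17.8 CPM for Acot8).

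Of the 3 regulators, 2 rose on MCD and none passed on HFD (adjusted p = 0.112 to 0.869 in edgeR). Ppara, the receptor PPARalpha itself (gene ID 19013, chromosome 15, 85734910 to 85806851), had 323, 372 and 351 CPM in MCD DTMB livers, 375, 294, 297 and 307 CPM in MCD vehicle livers and 161, 220.0, 193 and 241 CPM in normal-diet livers. Ppara in the HFD cohort had 454, 450.4, 394 and 429 CPM in HFD DTMB livers, 409, 359, 418 and 414 CPM in HFD vehicle livers and 350.4, 340.3 and 498 CPM in normal-diet livers. MCD vehicle livers lay above all normal-diet livers (0.63 ± 0.14, adjusted p = 0.0032), and the HFD groups overlapped (0.033 ± 0.12). Ppargc1a, the coactivator PGC-1alpha of mitochondrial genes, had 33.3, 29.7 and 19.4 CPM in MCD DTMB livers, 18.8, 41.5, 17.9 and 17.4 CPM in MCD vehicle livers and 7.97, 8.87, 8.48 and 5.13 CPM in normal-diet livers. Ppargc1a in the HFD cohort had 9.83, 8.17, 9.84 and 6.78 CPM in HFD DTMB livers, 8.62, 7.51, 10.96 and 11.3 CPM in HFD vehicle livers and 11.1, 11.5 and 12.5 CPM in normal-diet livers. It rose on MCD by 1.63 ± 0.30 (adjusted p = 0.00128), with MCD vehicle replicate 2 far above the other 3 livers of its group, and by 1.23 without it (adjusted p = 0.00123). Creb3l3, the transcription factor CREBH that acts with PPARalpha in fasting, had 291, 340.0 and 307 CPM in MCD DTMB livers, 297, 275, 244 and 206 CPM in MCD vehicle livers and 174, 211, 230.2 and 256 CPM in normal-diet livers. Creb3l3 in the HFD cohort had 379, 384, 353 and 401 CPM in HFD DTMB livers, 332, 348, 368 and 296 CPM in HFD vehicle livers and 386, 367 and 413 CPM in normal-diet livers. It passed on neither diet (0.22 ± 0.14 on MCD and -0.19 ± 0.085 on HFD), with overlapping groups in both.

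Pdk4, the kinase that turns off pyruvate dehydrogenase when fat is burned (gene ID 27273, chromosome 6, 5483351 to 5496278), had 39.5, 27.7 and 11.5 CPM in MCD DTMB livers, 26.6, 299, 17.0 and 24.8 CPM in MCD vehicle livers and 16.3, 3.85, 7.55 and 3.17 CPM in normal-diet livers. Pdk4 in the HFD cohort had 16.1, 12.8, 6.74 and 17.4 CPM in HFD DTMB livers, 26.7, 17.2, 33.4 and 13.4 CPM in HFD vehicle livers and 74.9, 22.1 and 36.9 CPM in normal-diet livers. MCD vehicle replicate 2 stood far above the other livers, at 299 CPM. The MCD rise was 3.55 ± 0.96 (adjusted p = 0.0112) with that library, and without it 1.55 (adjusted p = 0.0402). On HFD Pdk4 had -0.96 ± 0.42 (adjusted p = 0.111), with overlapping groups. Vnn1, the pantetheinase that is a strong PPARalpha target, had 124, 118 and 232 CPM in MCD DTMB livers, 149.5, 131, 84.1 and 95.6 CPM in MCD vehicle livers and 9.40, 14.4, 25.0 and 31.0 CPM in normal-diet livers. Vnn1 in the HFD cohort had 245, 259.7, 235 and 318 CPM in HFD DTMB livers, 262, 196, 249.9 and 191 CPM in HFD vehicle livers and 157, 116 and 235 CPM in normal-diet livers. It rose on MCD with no overlap (2.52 ± 0.36, adjusted p = 0.000233) and had 0.43 ± 0.21 on HFD (adjusted p = 0.145).

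Ucp2, a carrier of the inner mitochondrial membrane (gene ID 22228, chromosome 7, 100493337 to 100499629), had 58.1, 51.7 and 47.3 CPM in MCD DTMB livers, 42.4, 87.4, 62.1 and 30.8 CPM in MCD vehicle livers and 11.7, 25.4, 13.1 and 14.6 CPM in normal-diet livers. Ucp2 in the HFD cohort had 22.9, 17.3, 19.8 and 13.0 CPM in HFD DTMB livers, 38.9, 37.3, 22.3 and 45.4 CPM in HFD vehicle livers and 19.1, 13.4 and 14.6 CPM in normal-diet livers. It rose on both diets with no overlap, by 1.77 ± 0.32 on MCD (adjusted p = 0.00104) and by 1.21 ± 0.24 on HFD (adjusted p = 0.00304). Macrophages also express Ucp2, and 10 macrophage markers were summed, scaled by library total alone. Their sum was 312 to 597 CPM in MCD DTMB livers, 510 to 1240 CPM in MCD vehicle livers and 119 to 270 CPM in the normal-diet livers of that cohort, and 114 to 190 CPM in HFD DTMB livers, 136 to 390 CPM in HFD vehicle livers and 88.5 to 153 CPM in normal-diet livers. Against normal diet 7 of the 10 rose on MCD and 5 on HFD, with none lower and no marker at 0. With DTMB on MCD the 10 had a median of -0.67, with none called, while Ucp2 had -0.079 ± 0.33 (adjusted p = 0.985). The part of these markers in the Ucp2 values was not tested.

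**Figure D2:**
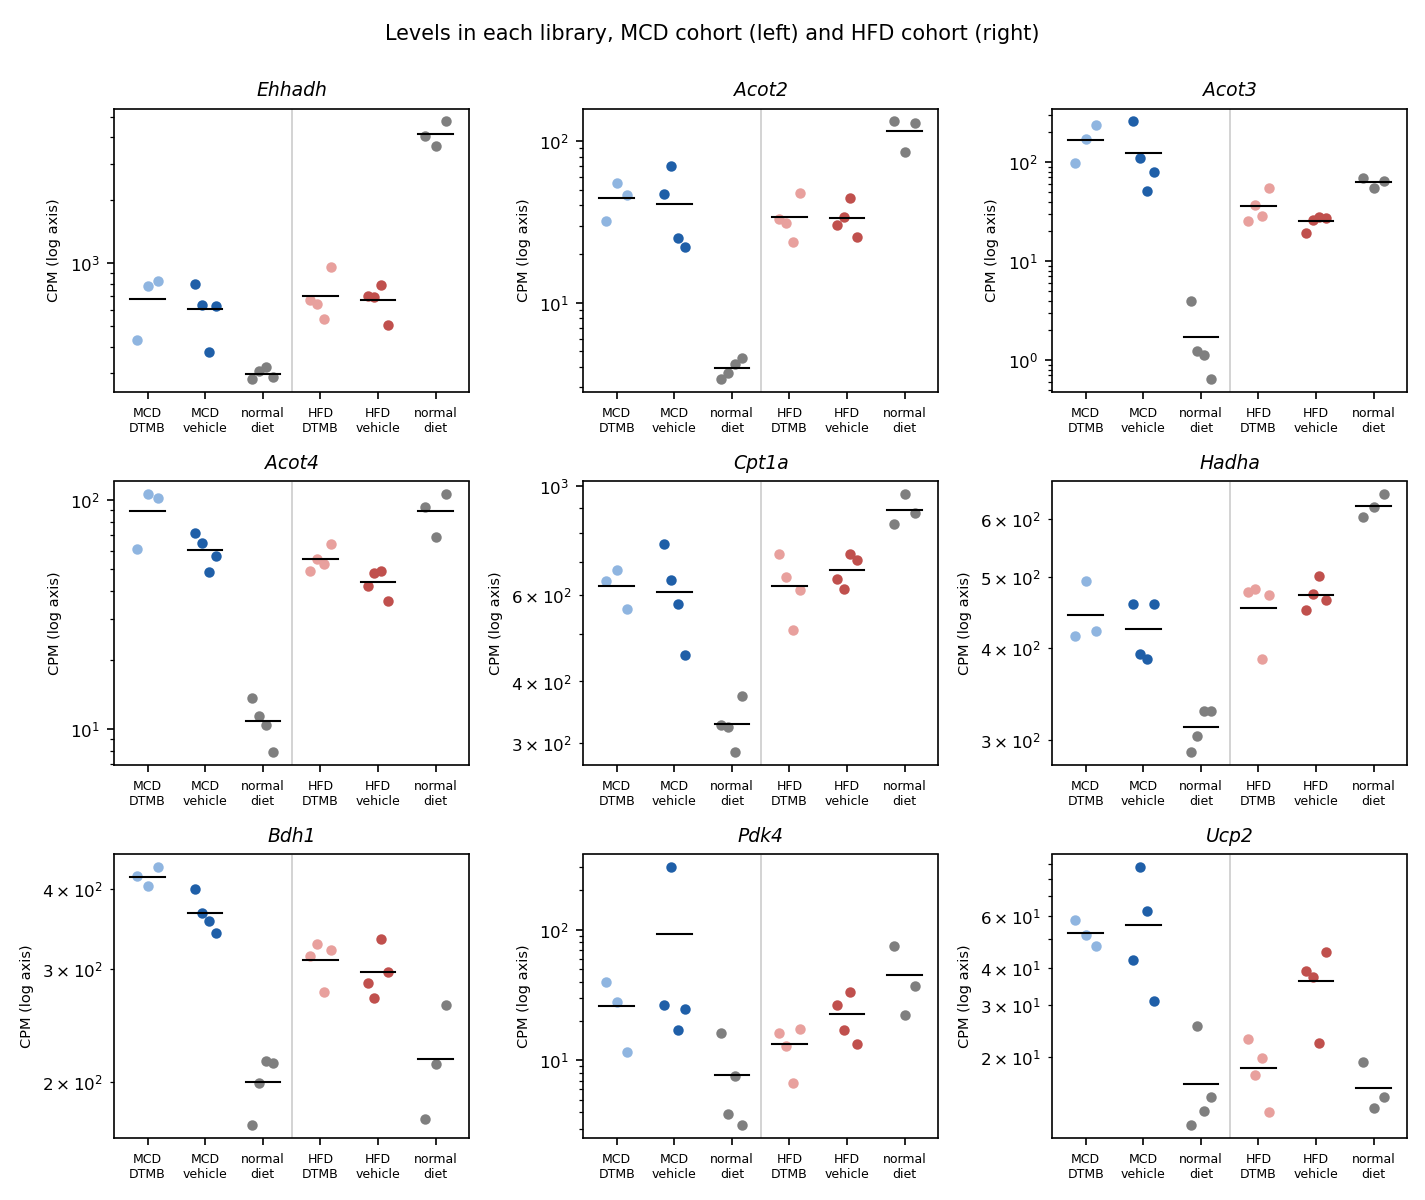
CPM in each of the 22 libraries (log axis) for 9 members; points are libraries and bars are group means, with the MCD cohort left and the HFD cohort right. Ehhadh, Acot2, Acot3 and Acot4 are high in the normal-diet livers of the HFD cohort and low in those of the MCD cohort, while the disease-diet livers lie between them for Ehhadh and Acot2, and on MCD all 3 DTMB and 3 of 4 vehicle livers lie within or above the higher group for Acot3, as do 2 of 3 DTMB livers and 1 of 4 vehicle livers for Acot4.

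The opposite responses came with unlike normal-diet groups. In a comparison chosen after these levels were seen, normal-diet livers of the MCD cohort were lower than those of the HFD cohort in 33 of 41 members and higher in 0, with a median of -1.01. The background was 13.3% of 16541 genes higher and 11.8% lower, with a median of 0.023. Ehhadh averaged 297 ± 17.9 CPM in normal-diet livers of the MCD cohort and 4155 ± 568 CPM in those of the HFD cohort (SD, n = 4 and 3), a log2 difference of -3.81 ± 0.25 (adjusted p = 3.57e-09). Acot3 differed by -5.16 ± 0.56, Acot1 by -4.97 ± 0.42 and Acot2 by -4.88 ± 0.36. Cpt1a differed by -1.45 ± 0.14 and Hadha by -0.998 ± 0.092. The 8 members that did not pass were Acads, Acaa2, Etfa, Etfb, Bdh1, Abcd2, Ppargc1a and Ucp2. Without the acinar libraries 30 members were lower, and Ehhadh had -3.60 (adjusted p = 4.87e-05).

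On the disease diets the cohorts were closer for several of the strongest responders. Ehhadh averaged 608 ± 174 CPM in MCD vehicle livers and 669.8 ± 117 CPM in HFD vehicle livers (SD, n = 4 each), with overlapping values and a difference of -0.14 ± 0.22 (adjusted p = 0.622). Acot2 differed by 0.29 ± 0.29 (adjusted p = 0.432), Cpt1a by -0.15 ± 0.13 and Hadha by -0.16 ± 0.086, none past the threshold. Of the 41, MCD vehicle livers were lower in 23 and higher in 5, against a background of 46.9% of genes called, 23.3% higher and 23.6% lower. The 5 were Acot3 (2.30 ± 0.47), Pdk4 (2.02 ± 0.76), Ppargc1a (1.32 ± 0.25), Acot4 (0.47 ± 0.18) and Bdh1 (0.31 ± 0.11). Pdk4 had 0.0091 without MCD vehicle replicate 2 (adjusted p = 0.991). Acot1 (-1.97 ± 0.36), Acsl1 (-1.96 ± 0.17), Acaa1b (-1.78 ± 0.20) and Crot (-1.66 ± 0.12) were the lowest on MCD. Since each cohort is 1 batch, these level differences, and with them the difference of the diet responses, cannot be told apart from a difference between the batches.

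Per kilobase of exon, the order of members also differed. In normal-diet livers Acaa2 led in the MCD cohort with 486 ± 48.4 CPM per kb, before Acaa1b with 458 ± 108 and Etfb with 305 ± 18.7 (SD, n = 4). Ehhadh led in the HFD cohort with 1394 ± 190.0 CPM per kb, before Acaa1b with 1348 ± 53.1 and Acsl1 with 679 ± 23.1 (SD, n = 3). In both cohorts the first 2 genes lay within their SD of each other, and the third lay below the second by more than both SDs. In MCD vehicle livers Acaa2 led with 350.0 ± 53.3 CPM per kb and Ehhadh had 204 ± 58.5, and in HFD vehicle livers Acaa1b led with 950.0 ± 134 CPM per kb.

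Mitochondrial and peroxisomal members had medians of the same sign on each diet, under each scaling tried, and the peroxisomal median was the larger in size, except on HFD without the acinar libraries (mitochondrial -0.19 and peroxisomal -0.17). By the usual site of the protein, 18 members are mitochondrial and 13 peroxisomal, and the other 10 are cytosolic, nuclear, shared or of another place. On MCD 8 mitochondrial members rose and 3 fell, with a median of 0.18, and 6 peroxisomal members rose and 2 fell, with a median of 0.39. On HFD 2 mitochondrial members rose and 9 fell (median -0.21), and 1 peroxisomal member rose and 6 fell (median -0.34). The difference between the compartments was not tested, since members are not replicates.

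Summed over members, levels moved less in mitochondria than in peroxisomes in the HFD cohort. The mitochondrial sum was 5682 ± 397 CPM in MCD DTMB livers, 5188 ± 407 CPM in MCD vehicle livers and 4490 ± 372 CPM in normal-diet livers (SD, n = 3 to 4). It was 7227 ± 552 CPM in HFD DTMB livers, 6712 ± 304 CPM in HFD vehicle livers and 7518 ± 369 CPM in normal-diet livers (SD, n = 3 to 4). The peroxisomal sum was 4122 ± 767 CPM in MCD DTMB livers, 3444 ± 479 CPM in MCD vehicle livers and 3331 ± 533 CPM in normal-diet livers (SD, n = 3 to 4). It was 6133 ± 653 CPM in HFD DTMB livers, 6405 ± 422 CPM in HFD vehicle livers and 11100 ± 1068 CPM in normal-diet livers (SD, n = 3 to 4). Peroxisomal sums of HFD livers, treated or not, ran from 5575 to 7060 CPM and did not reach those of the normal-diet livers, 10480 to 12330 CPM. Much of this was Ehhadh: without it the sum was 5432 ± 473 CPM in HFD DTMB livers, 5735 ± 322 CPM in HFD vehicle livers and 6942 ± 567 CPM in normal-diet livers (SD, n = 3 to 4), still with no overlap (5034 to 6099 CPM against 6440 to 7557 CPM). In the MCD cohort the peroxisomal sums of vehicle and normal-diet livers overlapped, 2877 to 4049 CPM against 2620 to 3742 CPM.

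**Figure D3:**
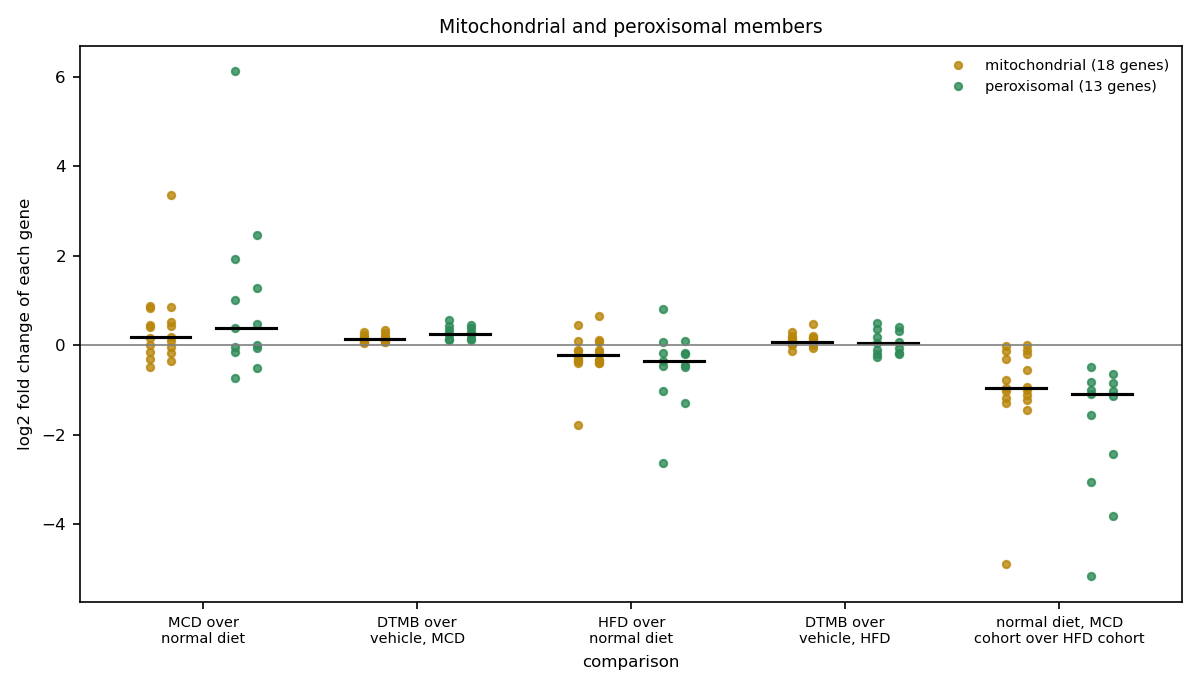
Log2 fold change of each mitochondrial (18) and peroxisomal (13) member in 5 comparisons; each point is a gene and each bar the median of its compartment. Both medians lie below 0 on HFD and above 0 on MCD, with Acot3 at 6.14 on MCD and Ehhadh at -2.62 on HFD as the extremes of the diet comparisons; the medians with DTMB on HFD, 0.082 and 0.057, turn to -0.070 and -0.089 by library size alone.

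DTMB changed few of these genes. On the MCD diet none of the 41 was called between DTMB and vehicle livers by edgeR, DESeq2 or limma-voom (2 had an unadjusted p under 0.05 in edgeR), against a background of 0.00624% of 16037 genes higher and 0% lower, which is 1 gene in all. Of all genes 857 had an unadjusted p under 0.05, and DESeq2 called 13 and limma-voom 0. The members still leaned one way: 39 of 41 had a positive value, with a median of 0.20, against 53.2% of all tested genes and a median of 0.017. In the same comparison the median was 0.063 for 9 hepatocyte markers, -0.67 for 10 macrophage, -0.60 for 8 stellate and fibroblast and -0.89 for 4 cholangiocyte markers, none called by edgeR, and their part in the members' values was not tested. By library size alone the medians were 0.049 for the mitochondrial and 0.17 for the peroxisomal members, with all genes at -0.082. All 18 mitochondrial and all 13 peroxisomal members were positive, and the 2 negative ones were Pdk4 and Ucp2. No p is given for this count, since the members share the libraries.

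Between the MCD groups 4 members had no overlap, all higher with DTMB and none called, against 2.27% of all tested genes higher and 3.58% lower without overlap. Decr2, the peroxisomal reductase of unsaturated chains, had 201, 222 and 228 CPM in MCD DTMB livers, 185, 173, 150.5 and 178 CPM in MCD vehicle livers and 141, 194, 195 and 226 CPM in normal-diet livers. Its value was 0.34 ± 0.14 (adjusted p = 0.919). Decr1, its mitochondrial counterpart, had 215, 236 and 232 CPM in MCD DTMB livers, 186, 181, 180.1 and 195 CPM in MCD vehicle livers and 116, 159.9, 181 and 197 CPM in normal-diet livers. Its value was 0.30 ± 0.15 (adjusted p = 0.923), and the others without overlap were Bdh1 (0.20 ± 0.11) and Abcd2 (0.39 ± 0.33). The interval for a member was wide: for Cpt1a, at 0.049 ± 0.17, the 95% interval ran from -0.31 to 0.41, and for Ehhadh from -0.37 to 0.69.

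On HFD 3 members were called for DTMB, 2 higher and 1 lower (2 higher and 3 lower by library size alone), against a background of 6.64% of 15597 genes higher and 6.04% lower. The shares of the 41 lie near that background. In the same comparison 3 of 9 hepatocyte markers rose and 0 fell (median 0.22). Of 8 stellate and fibroblast markers 0 rose and 3 fell (median -0.25). Of 5 endothelial and of 5 lymphocyte markers 1 each fell and 0 rose, and of 4 cholangiocyte markers none was called. Their part in the members' values was not tested. Etfb (gene ID 110826, chromosome 7, 43444072 to 43457800) had 287, 307, 323 and 378 CPM in HFD DTMB livers, 221, 243, 246 and 219 CPM in HFD vehicle livers and 281, 314 and 284 CPM in normal-diet livers. Every DTMB liver lay above every vehicle liver (0.47 ± 0.087, adjusted p = 0.011), and DTMB against normal-diet livers was 0.15 ± 0.094 (adjusted p = 0.259). Etfb in the MCD cohort had 253, 280.2 and 298 CPM in MCD DTMB livers, 265, 196, 219 and 309 CPM in MCD vehicle livers and 249.7, 273, 289 and 279.5 CPM in normal-diet livers. In that cohort the DTMB and vehicle groups overlapped (0.17 ± 0.15).

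Eci2, an isomerase of unsaturated chains found in peroxisomes and mitochondria (gene ID 23986, chromosome 13, 34977748 to 35027115), had 273, 301, 298 and 359 CPM in HFD DTMB livers, 209, 229.9, 247 and 234 CPM in HFD vehicle livers and 257, 265 and 256 CPM in normal-diet livers. It rose with DTMB (0.41 ± 0.085, adjusted p = 0.0155) with no overlap. Eci2 in the MCD cohort had 168, 226 and 212 CPM in MCD DTMB livers, 213, 139, 149 and 175 CPM in MCD vehicle livers and 82.3, 111, 143 and 176 CPM in normal-diet livers. There the value was 0.27 ± 0.23 (adjusted p = 0.925). The third, Ucp2, fell by 0.98 ± 0.21 (adjusted p = 0.0176), with 1 DTMB liver at 22.9 CPM above the lowest vehicle liver at 22.3 CPM. Of the 10 macrophage markers 2 fell and none rose in this comparison, with a median of -0.87. Their part in the Ucp2 value was not tested. Without the acinar libraries, which leaves 3 DTMB and 2 vehicle livers, none of the 3 passed, with 0.40 (adjusted p = 0.3) for Etfb, 0.37 (adjusted p = 0.317) for Eci2 and -0.76 (adjusted p = 0.325) for Ucp2. Ucp2 also lost its call without HFD vehicle replicate 1 or 4 or DTMB replicate 4, and Eci2 without HFD vehicle replicate 1.

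Ehhadh, the strongest fall on HFD, was not moved past the threshold by DTMB. It had 0.057 ± 0.17 between DTMB and vehicle livers (adjusted p = 0.857) and -2.56 ± 0.19 between DTMB and normal-diet livers (adjusted p = 1.1e-05). Hsd17b4 had 670.4, 627, 565 and 649.9 CPM in HFD DTMB livers, 690.3, 732, 721 and 678 CPM in HFD vehicle livers and 783, 823 and 851 CPM in normal-diet livers. Hsd17b4 in the MCD cohort had 388, 486 and 438 CPM in MCD DTMB livers, 439, 374, 384 and 422 CPM in MCD vehicle livers and 318, 421, 444 and 451 CPM in normal-diet livers. All HFD DTMB livers lay below all vehicle livers (-0.18 ± 0.068, adjusted p = 0.102), and the gene fell against normal diet (-0.37 ± 0.073, adjusted p = 0.00253). Crot likewise had no overlap between DTMB and vehicle livers (-0.27 ± 0.12, adjusted p = 0.15). Acaa2 (0.20 ± 0.069) and Etfa (0.20 ± 0.076) lay above the vehicle livers without overlap and did not pass (adjusted p = 0.0732 and 0.0959). The same held for Acadvl (0.16 ± 0.067), Eci1 (0.30 ± 0.11) and Acot4 (0.33 ± 0.14), with adjusted p = 0.122, 0.0894 and 0.13. With the called Etfb and Eci2 these are all the members higher without overlap, and Hsd17b4 and Crot are all those lower. Among all tested genes DTMB and vehicle livers on HFD did not overlap for 11.5% higher and 8.76% lower. Decr2 in the HFD cohort had 306, 306, 319.5 and 366 CPM in HFD DTMB livers, 298, 321, 323 and 288 CPM in HFD vehicle livers and 261, 309 and 318 CPM in normal-diet livers. Decr1 in the HFD cohort had 299, 299.5, 308 and 395 CPM in HFD DTMB livers, 287, 295, 308 and 289.9 CPM in HFD vehicle livers and 289.9, 335 and 365 CPM in normal-diet livers, and for both the groups overlapped.

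Against normal diet, more members were called higher than lower in MCD DTMB livers, and more lower than higher in HFD DTMB livers. On MCD 24 members were higher and 1, Crot, lower, against a background of 16.2% higher and 16.4% lower. On HFD 5 were higher and 17 lower, against 29.2% of genes called, 15.7% higher and 13.5% lower. These comparisons share the normal-diet livers with the diet comparisons. The DTMB responses of the cohorts were set against each other in the fit of all libraries, MCD minus HFD. None of the 41 and 0% of 16541 genes was called by edgeR, with 2 members and 1415 of all genes at an unadjusted p under 0.05, and with 38 genes but no member called by DESeq2 and 0 genes by limma-voom.

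**Figure D4:**
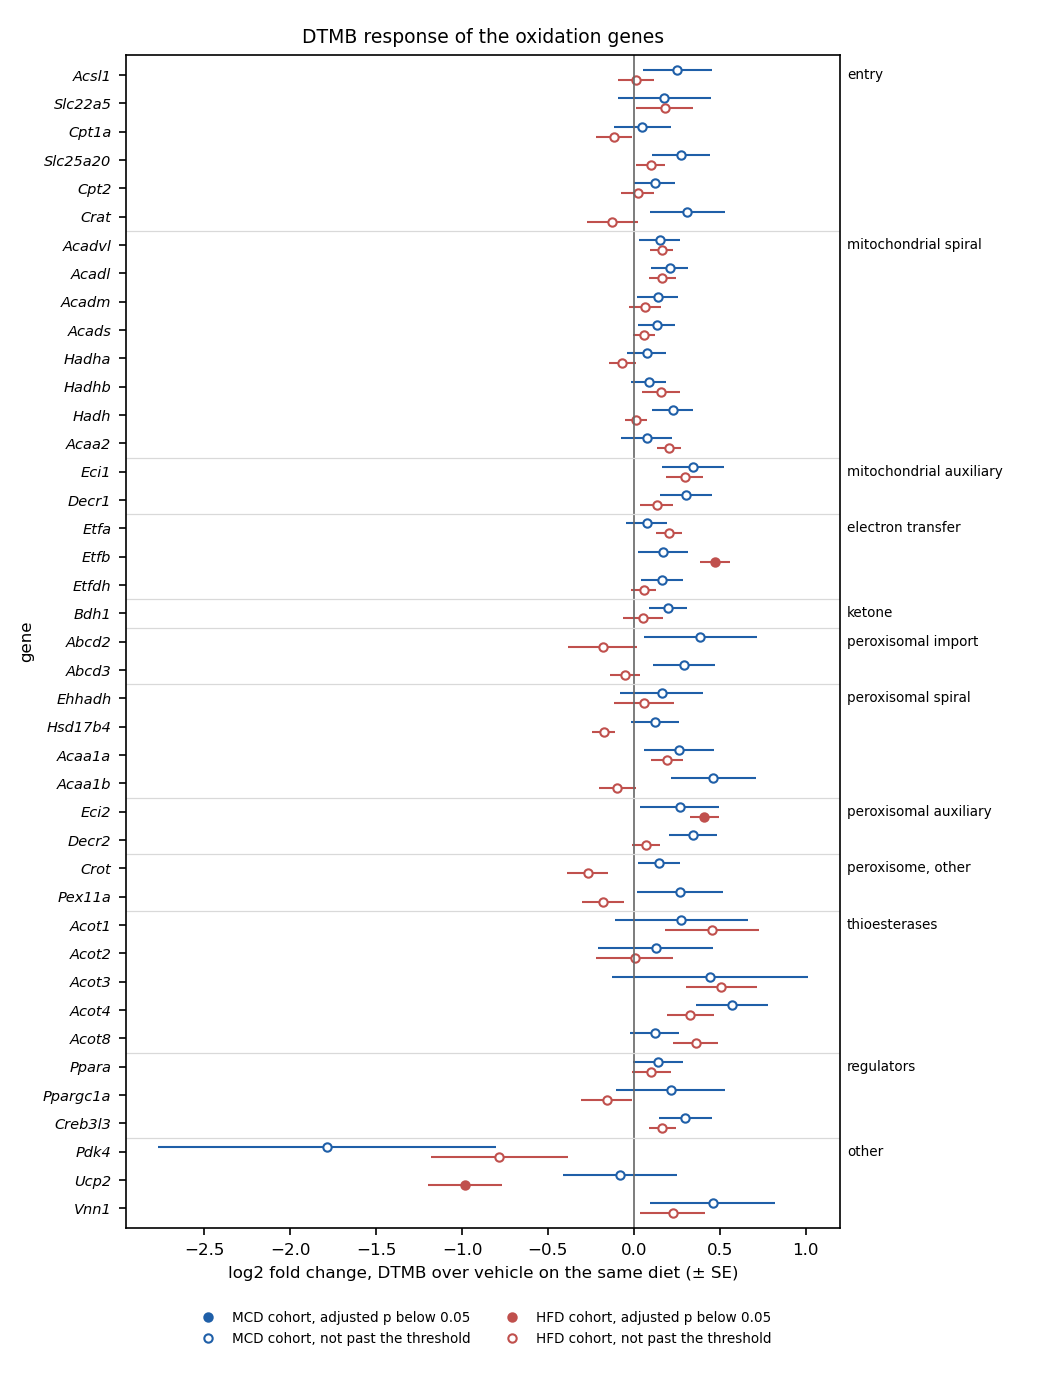
Log2 fold change of each of the 41 genes with DTMB over vehicle on the same diet, with its SE, in the MCD cohort (blue) and the HFD cohort (red). Filled points passed the threshold: Etfb, Eci2 and Ucp2 on HFD and none on MCD, where 39 of 41 points lie above 0.

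Further genes of the pathway, which are not members, were counted by list. Among all tested genes 20.3% rose and 21.0% fell on MCD, and 15.2% rose and 12.6% fell on HFD. Of 13 other mitochondrial oxidation genes 3 rose and 5 fell on MCD (median -0.31), and 8 rose and 4 fell on HFD (median 0.38). On both diets this median had the opposite sign to that of the mitochondrial members. Cpt1b, the muscle form of Cpt1a, rose on MCD (4.21 ± 0.53) and fell on HFD (-1.28 ± 0.24), as Cpt1a did. It was low, at 0.893 to 2.00 CPM in MCD vehicle livers and 0 to 0.127 CPM in normal-diet livers, and at 4.50 to 6.20 CPM in HFD vehicle livers and 7.74 to 16.6 CPM in normal-diet livers, where the highest was the liver with muscle markers, whose part was not tested. The acyl-CoA synthetase Acsm5 had -2.23 ± 0.17 on MCD and 0.74 ± 0.069 on HFD, opposite in sign to the long-chain spiral members Hadha, Hadhb and Acadl. Of 18 other peroxisomal genes 5 rose and 9 fell on MCD, with the sterol carrier and thiolase gene Scp2 at -1.38 ± 0.11 and the CoA diphosphatase Nudt7 at -2.70 ± 0.22. On HFD 4 rose and 5 fell. The median of these genes was -0.26 on MCD, opposite in sign to that of the peroxisomal members, and 0.011 on HFD. The thioesterase Acot5 rose on MCD, with 0.514 to 2.09 CPM in MCD vehicle livers and no count in any of the 4 normal-diet livers, so that no fold is given. On HFD it fell (-2.37 ± 0.30), at 0.434 to 0.579 CPM in HFD vehicle livers and 1.70 to 3.15 CPM in normal-diet livers. Of 15 peroxins, which build the organelle, 2 rose and 3 fell on MCD, and 3 rose and 1 fell on HFD.

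Of 15 other PPARalpha targets tested, 9 rose and 3 fell on MCD (median 1.54). Among them were the fatty acid hydroxylase Cyp4a31 at 4.23 ± 0.31 and the hormone gene Fgf21 at 6.5 ± 0.51. On HFD 0 rose and 6 fell (median -0.28), with Cyp4a14 at -1.97 ± 0.23 and Cyp4a31 at -1.23 ± 0.17. The Cyp4a genes are close copies, so their reads may be shared. The monocarboxylate carrier Slc16a1, which exports ketone bodies, rose on MCD (0.63 ± 0.13) and fell on HFD (-0.85 ± 0.17). Of 15 other regulators 4 rose and 3 fell on MCD, with the receptor Esrra at 0.89 ± 0.13, and 1 rose and 4 fell on HFD, with Hnf4a at -0.55 ± 0.073 and Ppargc1b at -0.995 ± 0.19. With DTMB on HFD 4 of these 15 rose and 1 fell, against 6.64% of all tested genes higher and 6.04% lower. Hnf4a, which is also counted among the hepatocyte markers, rose by 0.37 ± 0.068 (adjusted p = 0.011). On MCD no gene of these lists was called for DTMB by edgeR.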

How the data were processed

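Liver RNA of 22 libraries was compared within the MCD cohort and within the HFD cohort. The deposited tables hold whole-number read counts per gene, without normalization. Per the labels' protocols, RNA was taken with the RNeasy Plus kit (RIN over 7) and libraries were made with a stranded polyA kit. The submitters' processing notes name mm10, HISAT2 2.1.0, StringTie 2.1.3b, Trimmomatic 0.38 and FastQC 0.11.7. How counting was set and whether it used strand is not given in the sources used, so reads of near-identical or overlapping genes may be split between them.

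Counts were tested here with edgeR 4.0.16 in R 4.3.3 (filterByExpr, TMM factors, glmQLFit and glmQLFTest), with 3 groups of a cohort in a fit, all 22 libraries for comparisons between cohorts, and Benjamini-Hochberg adjustment over all genes tested. SE is the coefficient over the square root of its F statistic. CPM of a gene in each library uses TMM factors over all 22 libraries. Sums over marker lists use library totals alone. The members and lists were chosen with earlier results of these data known. Values in every library are given for 14 members that carry a step and for the others among the 3 of smallest p in either direction in a comparison. Genes named outside the members come from the 2 of smallest p in a list, and some lists have fewer or none named. Cpt1b, and Acot5 on MCD, were added after their values were seen. Some results of these lists are not reported here. The 2 comparisons of normal-diet and of disease-diet levels between cohorts, and the common CPM scale, were also chosen after seeing the data.

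Alternatives were DESeq2 1.42.0, limma-voom 3.58.1, RLE factors, library size alone, other count filters, other sets of samples, a fold cutoff, leave-one-out fits and a replicate block. Within each group, every pair of libraries differed beyond sampling noise. The fitting code was checked with simulated counts. RefSeq matched 45679 of 45777 gene IDs and all 41 members. Figures were drawn with matplotlib 3.10.9.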

Additional observations from a re-analysis of the deposited data

Results flagged for a closer look

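Single livers stood far from the rest of their group of 4 in 10 of the 164 groups tested by gap over range, where chance flags about 1 in 20. MCD vehicle replicate 1 had 564 CPM of Acaa1b (others 431 to 444), 18.2 CPM of Acot8 (14.5 to 15.1) and 374.9 CPM of Ppara (294 to 307). MCD vehicle replicate 2 had 41.55 CPM of Ppargc1a (17.4 to 18.8) and 299.4 CPM of Pdk4 (17.0 to 26.6). Normal-diet replicate 4 of the MCD cohort had 358.7 CPM of Etfa (337 to 338). HFD DTMB replicate 3 had 386.5 CPM of Hadha (472 to 481), and replicate 4 had 394.8 CPM of Decr1 (299 to 308). HFD vehicle replicate 4 had 168.9 CPM of Acads (184 to 186), and replicate 2 had 359.1 CPM of Ppara (409 to 418).

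The diet response, MCD minus HFD in log2 units, passed the test of the difference for 23 members (adjusted p under 0.05 in edgeR). It was higher on MCD for the thioesterases Acot3 (7.462), Acot2 (5.176), Acot4 (3.512), Acot1 (2.996) and Acot8 (0.9568). The entry genes Slc22a5 (2.917), Crat (2.096), Cpt1a (1.3) and Slc25a20 (0.6035) had the same sign. So did the mitochondrial genes Hadhb (1.248), Acadl (0.8735), Hadha (0.842) and Bdh1 (0.4247), and the peroxisomal genes Ehhadh (3.667), Pex11a (1.662) and Abcd2 (1.137). Pdk4 (4.548), Vnn1 (2.12), Ppargc1a (1.933), Ppara (0.6303) and Creb3l3 (0.4388) were also higher. Crot (-0.5732) and Hadh (-0.5351) were lower on MCD. Without MCD vehicle replicate 2 the Pdk4 value was 2.54 (adjusted p = 0.0117).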

How the results depend on the processing

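Of 199 summary values recomputed under alternatives other than leaving out a library, 180 stayed within 1.5 times the count or within 1 SD, and 19 moved. The cause was not tested. A fold cutoff leaves less to call by design. Leaving out the acinar libraries removes livers and acinar RNA together, and these cannot be told apart. Counts below are members called, then all genes called, against those reported.

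With DTMB on HFD, 3 members and 1978 genes were called. DESeq2 gave 7 and 3028, all libraries in one fit 1 and 542, library size alone 5 members, and leaving out the acinar libraries 0 and 0. Leaving out the acinar libraries gave 2 and 655 for the HFD diet (23 and 4332), 5 and 1022 for HFD DTMB against normal diet (22 and 4554), 15 and 2285 for the difference of diet responses (23 and 5847), and 892 genes for normal diet between cohorts (4143). A log2 fold change of at least 1 left 12 and 3054 for the MCD diet (26 and 6626), 12 and 2410 for MCD DTMB against normal diet (25 and 5230), 14 and 2930 for the difference of diet responses, and 7 and 2881 for disease diet between cohorts (28 and 7760). It left 6 and 1139 for the HFD diet, 4 and 872 for HFD DTMB against normal diet, 0 and 277 for DTMB on HFD, and 1252 genes for normal diet between cohorts. With DTMB on MCD, 0 members were called in each alternative, and 0 to 13 genes.

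Scaling by library size alone shifted the median of all genes to 0.47 on the MCD diet, 0.14 on the HFD diet, -0.17 with DTMB on HFD, 0.37 for MCD DTMB against normal diet, 0.33 for the difference of diet responses and 0.25 for disease diet between cohorts. It called 15 members on the HFD diet. Mitochondrial medians became 0.65 on the MCD diet, -0.084 on the HFD diet and -0.070 with DTMB on HFD, and the peroxisomal median on MCD 0.86. On MCD it turned Abcd3 (0.41), Cpt2 (0.15), Decr2 (0.32), Etfa (0.10), Etfb (0.30), Etfdh (0.42) and Hsd17b4 (0.44) positive, and Crot for MCD DTMB against normal diet (0.0029).

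Leaving out 1 library gave 23 to 26 members on the MCD diet, 17 to 24 on the HFD diet, 1 (without HFD vehicle replicate 1) to 5 (without HFD vehicle replicate 3) with DTMB on HFD, 21 to 28 and 15 to 24 for DTMB against normal diet on MCD and HFD, 19 to 24 for the difference of diet responses, 32 to 34 for normal diet and 23 to 29 for disease diet between cohorts, and 0 with DTMB on MCD. The peroxisomal median with DTMB on HFD ran from -0.13 (without HFD DTMB replicate 4) to 0.10. All genes called with DTMB on HFD ran from 483 (without HFD vehicle replicate 1) to 2562.

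Equal replicate numbers did not mark pairs (correlations of deviations from -0.408 to 0.126 on MCD and -0.531 to 0.490 on HFD). The replicate block called 25 members on the MCD diet, 20 on the HFD diet, 0 and 3 with DTMB on MCD and HFD, 23 and 20 for DTMB against normal diet, and 20 and 0 for the differences of diet and DTMB responses. It called 1225 genes with DTMB on HFD. Numbers lie within a cohort, so the block was not applied to level comparisons between cohorts.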
